A study of Danio rerio with 24 samples.

Results

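The genes described here encode the machinery that copies DNA, in zebrafish embryos exposed to a brominated flame retardant. They were chosen by gene symbol, as the protein-coding genes named for the origin recognition complex, the loading factors cdc6 and cdt1, the MCM helicase proteins, cdc45 and GINS. Primase, the replicative polymerases alpha, delta and epsilon, the sliding clamp pcna, its loader RFC and the single-strand binding protein RPA completed the set. This gave 46 of the 31901 genes in the deposited tables, of which 25431 are annotated as protein coding. The rule used no measured value, but the set was chosen with earlier results of these data known. For 4 of the 46, the symbol is the only reason for inclusion. Of these, mcm8 and mcm9 encode MCM-family proteins that act in homologous recombination, mcm3ap encodes a factor in messenger RNA export, and mcmbp encodes a protein that binds MCM complexes.

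Wild-type whole embryos were exposed to 40 µM tetrabromobisphenol A (TBBPA) in 0.1% dimethyl sulfoxide (DMSO), or to 0.1% DMSO alone, from 0.75 hours post fertilization (hpf). They were collected at 2, 3.5 or 4.5 hpf, and RNA was sequenced in 4 libraries for each of the 6 combinations of treatment and time. All groups therefore share the DMSO vehicle. The labels do not say whether the 4 libraries of a group came from separate clutches, so p-values measure the spread between these libraries, which may be technical.

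Replication begins when the origin recognition complex binds DNA and, with Cdc6 and Cdt1, loads the MCM helicase, a ring of 6 different subunits named Mcm2 to Mcm7. Cdc45 and GINS join the ring to form the active helicase, Mcm10 helps to start it, polymerase alpha with primase makes the primers, and polymerases epsilon and delta extend them on the leading and lagging strands. PCNA is the ring that holds polymerases on DNA, RFC loads it, and RPA coats the exposed single strands. The early fish embryo divides rapidly from proteins and messenger RNAs laid down in the egg, before its own genome becomes active at the midblastula transition. In Xenopus, Mcm3 and Mcm6 each have a maternal and a zygotic form encoded by separate genes. In the zebrafish tables, mcm3 is accompanied by mcm3l and mcm6 by mcm6l.

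Values are FPKM, fragments counted on a gene divided by its length in kilobases and by a scaled library size. They are given as mean ± SD with n = 4 unless every library is listed. The library size implied by the deposited values was not the sum of assigned reads. At 4.5 hpf it was above that sum in every TBBPA library and below it in every DMSO library. In replicate 1 it was 18.46 M for 17.69 M reads in TBBPA and 19.04 M for 20.02 M reads in DMSO. Total-count scaling divides by the sum of assigned reads instead. A log2 difference is on the log2(FPKM + 1) scale and therefore understates the change of weakly expressed genes. "Higher", "lower", "rose" and "fell" are used for differences whose adjusted p was under 0.05 in limma, a linear model with moderated variances fitted over all genes. The tables of 2 hpf and of the later times were scaled apart, so levels at 2 hpf are set beside the others without a test.

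Depth was 10.63 to 20.02 M reads assigned to genes per library and did not separate the treatments at any time (exact permutation p = 0.486 at 2 hpf, 0.114 at 3.5 hpf and 0.971 at 4.5 hpf, 2-sided). Mitochondrial transcripts made up 1.82 ± 0.10% of reads in TBBPA and 2.14 ± 0.13% in DMSO at 3.5 hpf, and 1.86 ± 0.12% in TBBPA and 2.47 ± 0.06% in DMSO at 4.5 hpf. For both times the exact permutation p was 0.0286, the smallest that 4 against 4 libraries allow. The 11 marker genes of cell types not yet formed summed to at most 1.91 FPKM in any library, with mylpfa and cryaa at 0 in all. Markers of the embryo's state did differ. At 3.5 hpf the 3 zygotic markers summed to 145 to 186 FPKM in TBBPA and 304 to 319 FPKM in DMSO. That gap lay in klf17, at 99.8 FPKM in TBBPA and 190.9 FPKM in DMSO, and in sox3, at 48.4 and 102.3 FPKM. The third, vox, averaged 18.9 FPKM in TBBPA and 17.9 FPKM in DMSO. At the same time the 4 enveloping layer markers summed to 6.59 to 10.5 FPKM in TBBPA and 36.3 to 41.8 FPKM in DMSO. The zygotic markers summed to 150 to 174 FPKM in TBBPA and 305 to 326 FPKM in DMSO at 4.5 hpf, and the enveloping layer markers to 15.7 to 24.4 FPKM in TBBPA and 217 to 272 FPKM in DMSO. The maternal transcripts sox19b and zp3b summed to 357 to 428 FPKM in TBBPA and 117 to 146 FPKM in DMSO at 4.5 hpf. Most of that gap was sox19b, at 325 FPKM in TBBPA and 74.9 FPKM in DMSO, with zp3b at 67.7 FPKM in TBBPA and 59.2 FPKM in DMSO. The 4 germ plasm markers did not move together at 4.5 hpf and summed to 372 to 403 FPKM in TBBPA and 259 to 286 FPKM in DMSO. Among them buc averaged 182 FPKM in TBBPA and 48.0 FPKM in DMSO, ddx4 118 FPKM in TBBPA and 147 FPKM in DMSO, nanos3 68.4 FPKM in TBBPA and 62.4 FPKM in DMSO, and dazl 19.2 FPKM in TBBPA and 13.1 FPKM in DMSO. These are whole-embryo libraries, so fewer cells of a type and less RNA per cell cannot be told apart. The part of these markers in the results below was not tested.

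At 2 hpf the replication genes spanned a wide range of levels. The most abundant was cdt1, at 532 ± 18 FPKM in TBBPA and 547 ± 14 FPKM in DMSO, followed by pcna at 345 ± 11 FPKM in TBBPA and 360 ± 28 FPKM in DMSO, and mcm7 at 307 ± 22 FPKM in TBBPA and 299.6 ± 58 FPKM in DMSO. In DMSO embryos, 7 of the 46 genes exceeded 100 FPKM, the others being orc6, pole2, rpa3 and rpa1. At the low end, 6 genes lay under 5 FPKM, namely mcm2, mcm3, mcm6, mcm6l, pole and rfc3.

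The transcripts of the 6 helicase subunits were not present in equal amounts. With mcm3 and mcm3l summed and mcm6 and mcm6l summed, the most abundant subunit exceeded the least abundant by 180 ± 4.0 times in TBBPA and 178 ± 64 times in DMSO at 2 hpf. At 3.5 hpf the same ratio was 18.9 ± 1.0 in TBBPA and 18.9 ± 2.0 in DMSO. At 4.5 hpf it was 15.8 ± 0.84 in TBBPA and 10.9 ± 0.50 in DMSO. As a description of the tables scaled apart, 8 of the 46 genes had at least 2 times the mean FPKM at 3.5 hpf as at 2 hpf in both treatments. They were orc1, rfc2, rfc4 and 5 helicase genes, with ratios in TBBPA and DMSO of 3.36 and 4.93 for mcm2, 6.18 and 7.20 for mcm3, 2.86 and 3.50 for mcm5 and 7.49 and 6.97 for mcm6l. The fifth, mcm6, had only 0 to 9 reads per library at 2 hpf, so no ratio is given for it. The ratio was 0.5 or less in both treatments for 3 genes, namely cdc45 with 0.279 in TBBPA and 0.271 in DMSO, rpa1 with 0.472 in TBBPA and 0.439 in DMSO, and mcm3ap with 0.394 in TBBPA and 0.476 in DMSO.

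**Figure D1:**
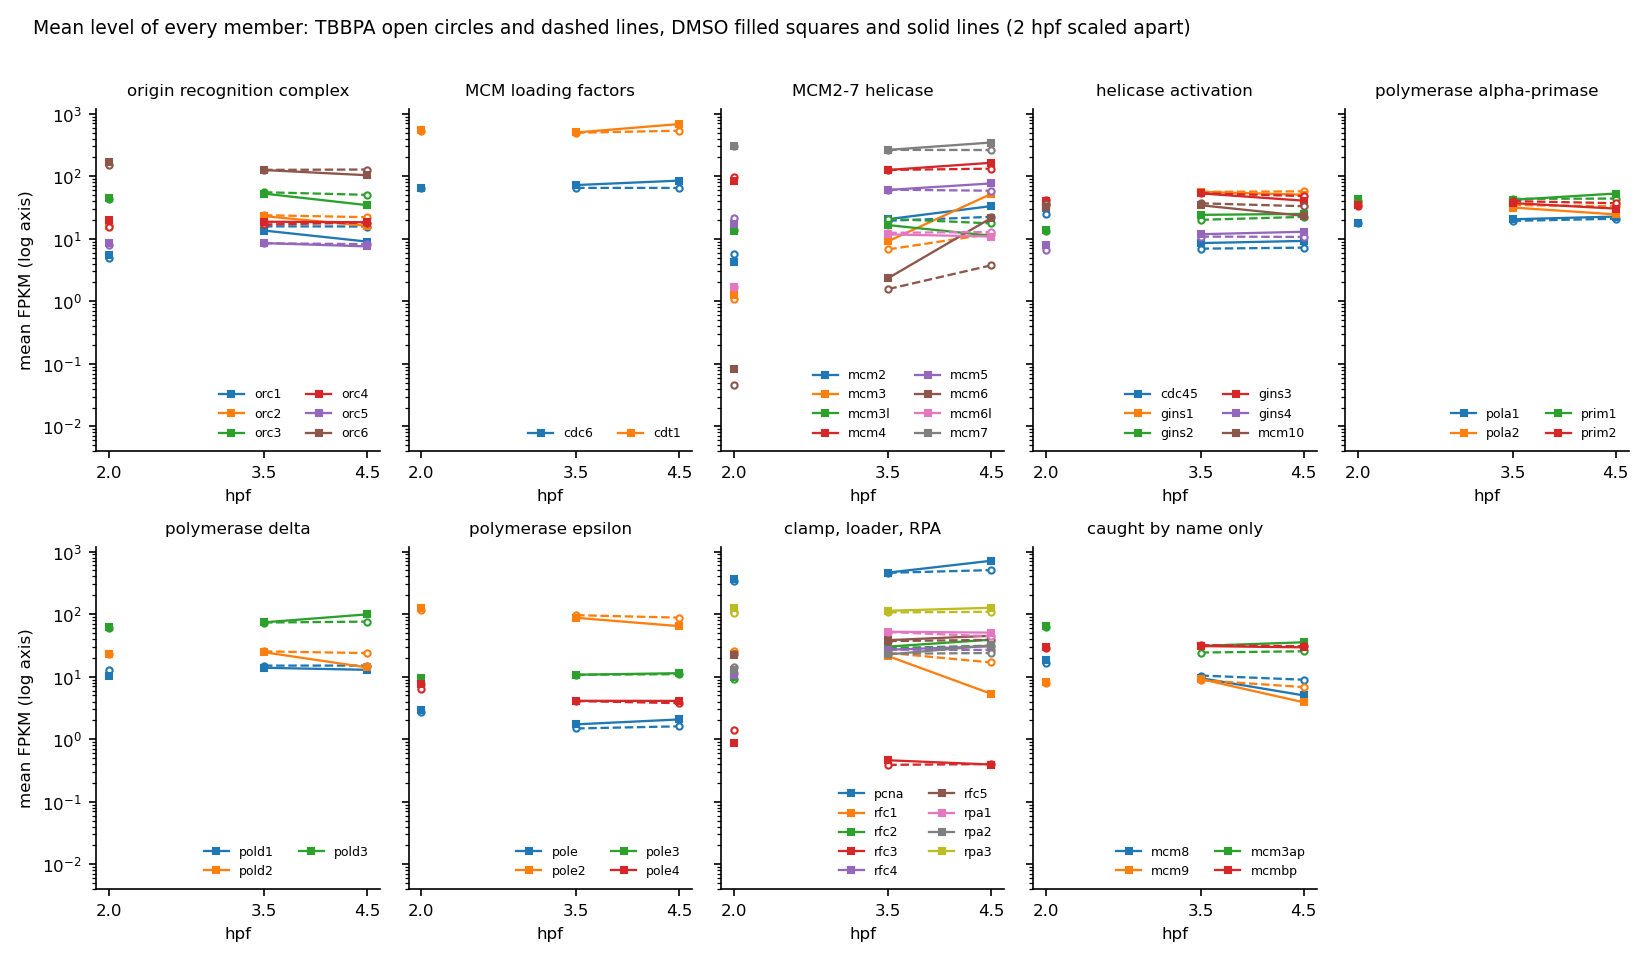
Mean FPKM (log axis, n = 4 libraries) of all 46 genes at 2, 3.5 and 4.5 hpf in 9 panels by role, with TBBPA as open circles joined by dashed lines and DMSO as filled squares joined by solid lines; 2 hpf is not joined because it was scaled apart. Most open and filled symbols lie close together at 2 and 3.5 hpf, though the weakly expressed mcm6 and rfc3 lie further apart at 2 hpf. The TBBPA libraries of rfc3 at 2 hpf ran from 0.665 to 3.44 FPKM. Many but not all separate at 4.5 hpf, furthest for mcm6, at 3.77 FPKM in TBBPA and 21.6 FPKM in DMSO.

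At 2 hpf, no replication gene was called different between TBBPA and DMSO. Of the 46 genes, 44 passed the low-value filter, which asked for 1 FPKM or more in 4 or more of the libraries compared, mcm6 and rfc3 being left out, and 0 were higher and 0 lower. In the background, limma called 0% of the 11061 genes tested in either direction, while 795 of them had an unadjusted p under 0.05. Of the 44 replication genes tested, 7 had an unadjusted limma p under 0.05, with the smallest adjusted p at 0.684. The voom alternative on recovered reads also called 0, with 8 at an unadjusted p under 0.05. The median log2 difference of the 44 was -0.05, against -8.7e-05 for all genes tested. The 95% intervals of the helicase genes were wide where levels were low, for example 0.03 to 0.71 for mcm2 and -0.50 to 0.26 for mcm3.

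By library at 2 hpf, the low-level helicase genes varied widely within a treatment. The ring subunit mcm2 had 6.52, 7.23, 4.08 and 5.34 FPKM in TBBPA and 3.80, 4.15, 4.65 and 4.14 FPKM in DMSO, and mcm3 had 0.747, 1.495, 0.883 and 1.26 FPKM in TBBPA and 0.980, 1.18, 1.11 and 1.82 FPKM in DMSO. The paralog mcm3l had 11.6, 14.8, 10.5 and 17.5 FPKM in TBBPA and 15.2, 12.7, 12.9 and 11.8 FPKM in DMSO, and mcm6l had 1.57, 1.55, 1.71 and 1.83 FPKM in TBBPA and 2.24, 1.57, 1.34 and 1.60 FPKM in DMSO. The treatments overlapped in all 4 genes. Among the abundant genes, pcna had 336, 346, 337 and 359.7 FPKM in TBBPA and 369, 362, 388 and 322 FPKM in DMSO. The loading factor cdt1 had 527, 529, 515 and 557 FPKM in TBBPA and 563, 530.5, 552 and 544 FPKM in DMSO, and its partner cdc6 had 65.5, 63.2, 68.7 and 63.0 FPKM in TBBPA and 64.8, 60.5, 69.9 and 65.8 FPKM in DMSO. These 3 genes overlapped between treatments as well. Some other genes did not overlap, though none was called. TBBPA lay above DMSO for mcm4 (92.5 to 106 and 83.5 to 88.2 FPKM), pold1 (12.3 to 13.8 and 9.60 to 11.2 FPKM) and rfc1 (24.3 to 27.0 and 21.9 to 23.6 FPKM). It lay below DMSO for orc4 (14.3 to 16.8 and 18.4 to 23.7 FPKM). How many of all genes did not overlap was not computed.

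At 3.5 hpf, when the embryo's own genome is becoming active, 4 of the 45 replication genes tested differed between treatments. The origin gene orc1 was higher in TBBPA, and mcm3, cdc45 and the export factor mcm3ap were lower. This is 1 gene higher and 3 lower of 45, against 6.67% higher and 5.34% lower of the 11859 genes tested, so the share is near the background. The median log2 difference of the 45 was 0.00, against 0.01 for all genes tested. The small clamp loader subunit gene rfc3, at 0.388 ± 0.088 FPKM in TBBPA and 0.459 ± 0.073 FPKM in DMSO, was under the filter at every time.

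The helicase subunit gene mcm3 lies on chromosome 20 at 34770197 to 34783743 on the plus strand in the authors' tables, whose genome build is not given in the sources used here. At 3.5 hpf it had 5.83, 6.82, 7.17 and 7.27 FPKM in TBBPA, against 9.70, 9.02, 8.79 and 9.15 FPKM in DMSO. Every TBBPA library was below every DMSO library, with a log2 difference of -0.39 ± 0.07 (SE, limma adjusted p = 0.00541). The gene overlaps stmn4 on the opposite strand, and the labels do not settle whether the libraries kept the strand. stmn4 stood at 11.1 ± 0.47 FPKM in TBBPA and 10.2 ± 0.63 FPKM in DMSO at 3.5 hpf, and at 11.8 ± 1.1 FPKM in TBBPA and 12.04 ± 0.96 FPKM in DMSO at 4.5 hpf.

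The gene for an ATP-binding subunit of the origin complex, orc1, had 15.6, 15.8, 16.3 and 15.6 FPKM in TBBPA at 3.5 hpf, against 13.0, 13.7, 13.9 and 13.6 FPKM in DMSO. The groups did not overlap (log2 difference 0.21 ± 0.04 SE, limma adjusted p = 0.00784). The helicase component cdc45 had 6.90, 7.36, 7.11 and 6.45 FPKM in TBBPA, against 8.49, 8.40, 8.32 and 8.97 FPKM in DMSO, again without overlap (log2 difference -0.26 ± 0.06 SE, limma adjusted p = 0.0137). Over 15384 bases cdc45 overlaps ufd1l on the opposite strand, which had 27.7 ± 1.5 FPKM in TBBPA and 26.1 ± 0.73 FPKM in DMSO at 3.5 hpf. The export factor mcm3ap had 22.9, 23.5, 23.5 and 27.4 FPKM in TBBPA, against 28.8, 31.3, 31.0 and 33.3 FPKM in DMSO. Its highest TBBPA library was still below its lowest DMSO library (log2 difference -0.34 ± 0.06 SE, limma adjusted p = 0.00503). Close to the threshold but not past it were mcm6 at -0.40 (adjusted p = 0.0867), mcm3l at 0.33 (adjusted p = 0.0536) and rfc1 at 0.16 (adjusted p = 0.0544), all log2 differences in limma. So were gins2 at -0.25 (limma adjusted p = 0.0653) and pole2 at 0.14 (limma adjusted p = 0.083).

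By library at 3.5 hpf, mcm6 had 1.06, 1.23, 2.03 and 1.97 FPKM in TBBPA and 2.03, 2.36, 2.64 and 2.40 FPKM in DMSO, with the groups just apart. Its paralog mcm6l had 11.9, 13.2, 12.05 and 12.6 FPKM in TBBPA and 10.4, 11.97, 11.6 and 13.1 FPKM in DMSO, and mcm3l had 20.6, 22.1, 21.2 and 19.4 FPKM in TBBPA and 15.1, 16.5, 20.5 and 14.1 FPKM in DMSO. Both paralogs overlapped between treatments. The ring gene mcm2 had 19.6, 18.6, 20.0 and 19.5 FPKM in TBBPA and 21.2, 19.3, 20.9 and 21.0 FPKM in DMSO, and the clamp gene pcna had 458, 461, 461 and 451 FPKM in TBBPA and 474, 470.4, 449.6 and 452 FPKM in DMSO. These overlapped too. The number of genes higher at 3.5 hpf was 4 under TPM scaling, with mcm3l, rfc1 and pole2 added to orc1, and ranged over 1 to 3 when a replicate was left out.

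**Figure D2:**
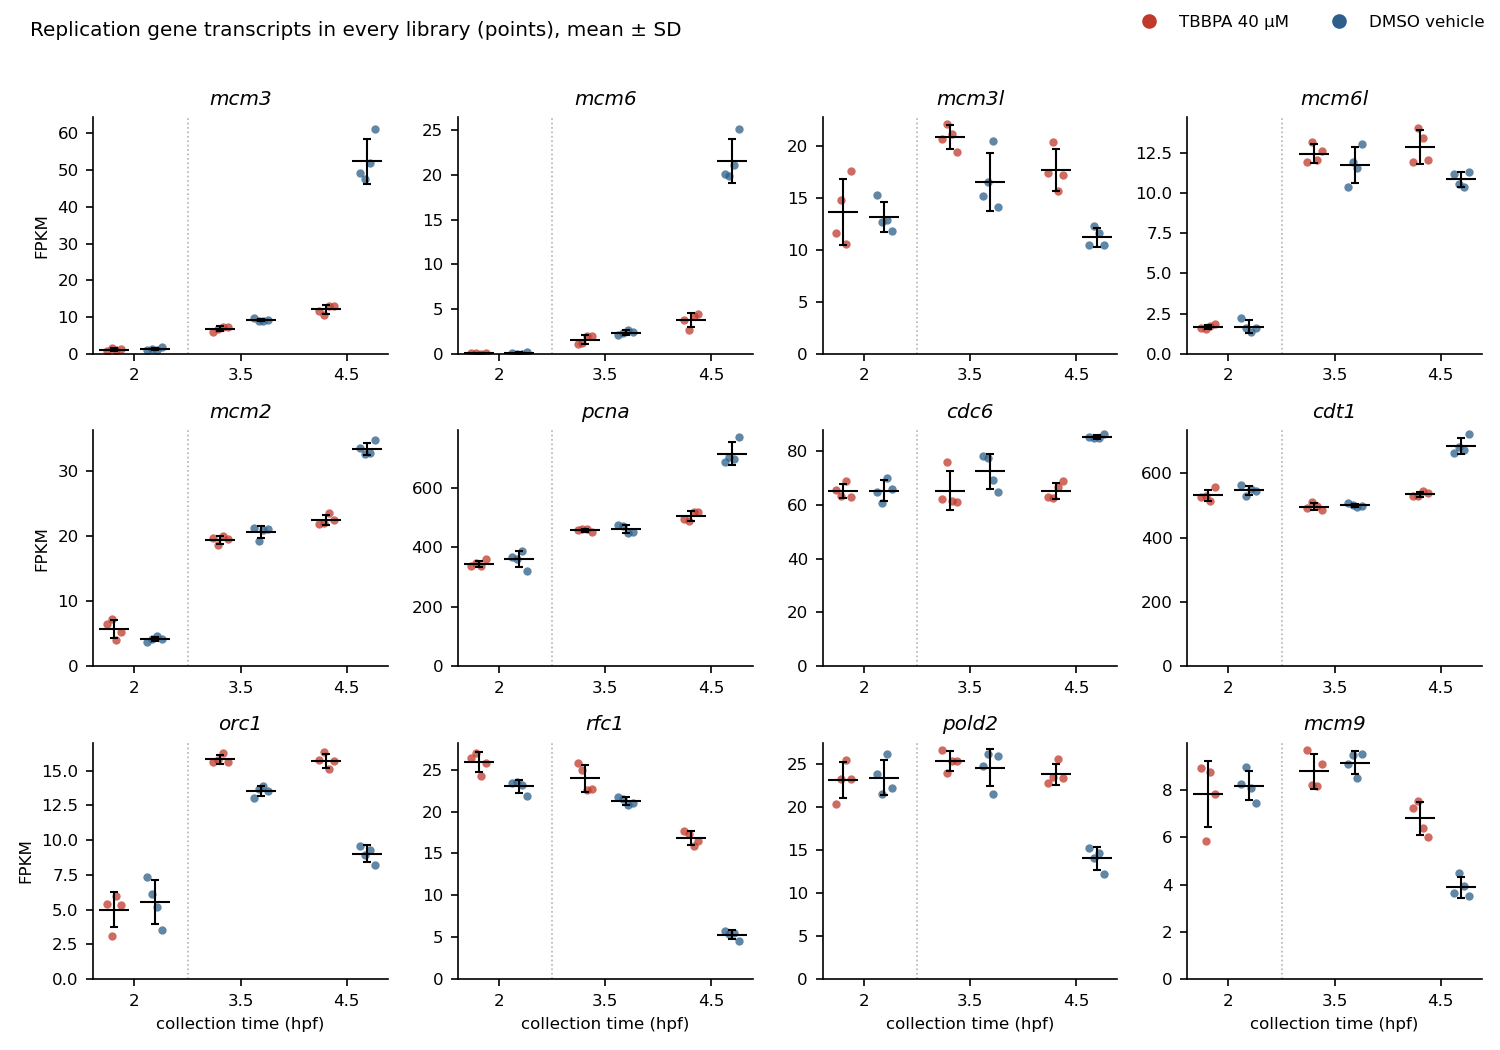
FPKM of 12 replication genes in every library (points), with group mean ± SD (bars), TBBPA left and DMSO right at each of 2, 3.5 and 4.5 hpf; the dotted line marks the separately scaled 2 hpf table. At 4.5 hpf the TBBPA points lie below all DMSO points for mcm3, mcm6, mcm2, pcna, cdc6 and cdt1 and above all DMSO points for mcm3l, mcm6l, orc1, rfc1, pold2 and mcm9.

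At 4.5 hpf, more replication genes differed between treatments than at the earlier times. The largest differences were those of the helicase genes mcm6 and mcm3, which were lower in TBBPA, and of the clamp loader gene rfc1, which was higher. In all, 17 of the 45 genes tested were higher and 20 lower, against 33.1% higher and 35% lower of the 12324 genes tested, and 8 were not called. Both shares are near the background. The median log2 difference was -0.11, against -0.02 for all genes tested. The counts depend on scaling. With TPM scaling the split was 20 higher and 13 lower, and with total-count scaling 19 higher and 13 lower, scalings that put the median of all genes at 0.13 and 0.10 in place of -0.02. The shares of all genes called under these scalings are not given here, so these splits cannot be set against the background. In both, rpa1, rpa3, rfc4, rfc5, prim1, gins4 and cdc45 were no longer called.

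Among the 8 helicase ring genes, mcm2, mcm3, mcm4, mcm5, mcm6 and mcm7 were lower in TBBPA and the paralogs mcm3l and mcm6l were higher, under every scaling tried. The largest differences were those of mcm6 and mcm3. The subunit gene mcm6, on chromosome 6 at 12968101 to 12985390 on the plus strand, had 3.75, 2.69, 4.25 and 4.39 FPKM in TBBPA at 4.5 hpf, against 20.1, 19.9, 21.2 and 25.2 FPKM in DMSO. The TBBPA mean was 0.175 of the DMSO mean, with a log2 difference of -2.25 ± 0.12 (SE, limma adjusted p = 2.15e-07). For mcm3 the values were 11.5, 10.6, 12.9 and 13.1 FPKM in TBBPA, against 49.1, 47.5, 51.8 and 61.3 FPKM in DMSO. The ratio of means was 0.229 and the log2 difference -2.03 ± 0.09 (SE, limma adjusted p = 7.19e-08). For both genes the highest TBBPA library was far below the lowest DMSO library.

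The other 4 ring subunits were lower by smaller amounts. The subunit gene mcm2 had 21.8, 22.1, 23.6 and 22.4 FPKM in TBBPA, against 33.5, 32.6, 32.7 and 34.7 FPKM in DMSO, with no overlap (log2 difference -0.55 ± 0.04 SE, limma adjusted p = 1.19e-06). The 3 remaining subunits were already abundant at 2 hpf or became so by 3.5 hpf. Of these, mcm7 averaged 263 ± 5.2 FPKM in TBBPA and 347 ± 10 FPKM in DMSO, mcm5 averaged 58.7 ± 1.0 FPKM in TBBPA and 76.9 ± 2.5 FPKM in DMSO, and mcm4 averaged 132 ± 5.4 FPKM in TBBPA and 164 ± 4.7 FPKM in DMSO. Their log2 differences were -0.40, -0.38 and -0.31.

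The paralogs went the other way. On chromosome 20 at 6516523 to 6532462 on the minus strand, mcm3l had 17.3, 20.4, 15.6 and 17.2 FPKM in TBBPA at 4.5 hpf, against 10.5, 12.2, 11.6 and 10.4 FPKM in DMSO (log2 difference 0.61 ± 0.08 SE, limma adjusted p = 8.82e-05). On chromosome 2 at 50199738 to 50225495 on the minus strand, mcm6l had 11.9, 14.1, 13.5 and 12.1 FPKM in TBBPA, against 11.2, 10.6, 10.4 and 11.3 FPKM in DMSO (log2 difference 0.22 ± 0.07 SE, limma adjusted p = 0.0120). In both genes all TBBPA libraries were above all DMSO libraries, for mcm6l by a narrow margin. How reads that match both copies of a pair were assigned is not given in the sources used here, so the split within each pair carries that uncertainty.

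The shares of mcm3 and mcm6 within their pairs are given as a description, with no test. The share of mcm3 in the summed FPKM of mcm3 and mcm3l was 7.41 ± 1.4% in TBBPA and 8.97 ± 3.1% in DMSO at 2 hpf, and 24.6 ± 2.3% in TBBPA and 36.0 ± 4.3% in DMSO at 3.5 hpf. At 4.5 hpf it was 40.7 ± 4.8% in TBBPA and 82.3 ± 2.5% in DMSO. The share of mcm6 in the sum of mcm6 and mcm6l was 2.72 ± 2.5% in TBBPA and 4.16 ± 5.6% in DMSO at 2 hpf, 11.1 ± 3.3% in TBBPA and 16.7 ± 1.3% in DMSO at 3.5 hpf, and 22.7 ± 4.6% in TBBPA and 66.4 ± 2.1% in DMSO at 4.5 hpf. At 4.5 hpf mcm3l and mcm6l made up most of their pairs in TBBPA, and mcm3 and mcm6 most of them in DMSO. At 2 hpf mcm6 had 4, 3, 0 and 1 reads in TBBPA and 5, 0, 0 and 9 reads in DMSO, so its share there rests on few reads. The summed FPKM of the pair was 29.7 ± 1.2 in TBBPA and 63.6 ± 5.7 in DMSO for mcm3 with mcm3l at 4.5 hpf, and 16.7 ± 0.85 in TBBPA and 32.5 ± 2.7 in DMSO for mcm6 with mcm6l.

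**Figure D3:**
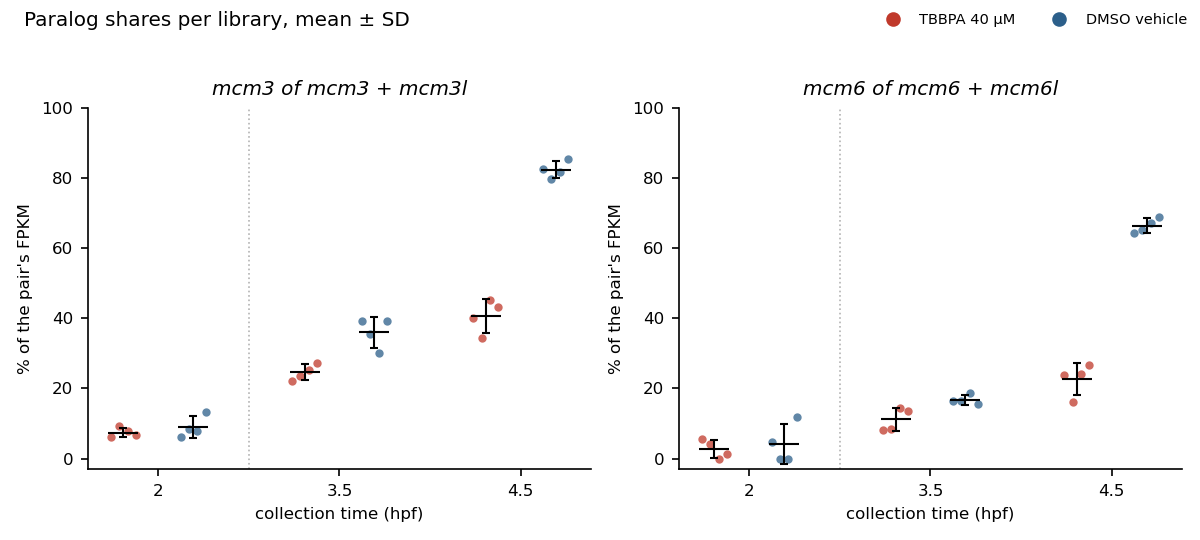
Share of mcm3 in the summed FPKM of mcm3 and mcm3l (left) and of mcm6 in that of mcm6 and mcm6l (right), in percent, per library (points) with mean ± SD (bars), TBBPA left and DMSO right at each time. The shares lie low at 2 hpf in both treatments and at 4.5 hpf reach 40.7% in TBBPA and 82.3% in DMSO for mcm3, and 22.7% in TBBPA and 66.4% in DMSO for mcm6.

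The factors that load the ring were both lower in TBBPA at 4.5 hpf. The loader cdc6 had 62.7, 62.3, 66.6 and 68.8 FPKM in TBBPA, against 85.1, 84.8, 84.7 and 86.3 FPKM in DMSO (log2 difference -0.38 ± 0.04 SE, limma adjusted p = 6.56e-06). The licensing factor cdt1, the most abundant replication transcript at 2 and 3.5 hpf, had 529, 529, 545 and 538 FPKM in TBBPA, against 664, 681, 673 and 723 FPKM in DMSO (log2 difference -0.35 ± 0.03 SE, limma adjusted p = 2.71e-06). Neither overlapped between treatments at 4.5 hpf. At 3.5 hpf, by contrast, cdc6 had 62.3, 75.9, 61.5 and 61.2 FPKM in TBBPA and 77.9, 77.4, 69.2 and 64.9 FPKM in DMSO, which overlapped. There cdt1 had 492, 510, 499 and 485 FPKM in TBBPA and 508, 501, 497 and 499 FPKM in DMSO, also overlapping.

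Of the 6 origin recognition complex genes, 4 were higher in TBBPA and none was lower, 2 being not called. Among all genes tested at 4.5 hpf, 33.1% were higher and 35% lower. The values of orc1 were 15.8, 16.3, 15.1 and 15.7 FPKM in TBBPA, against 9.60, 8.96, 9.30 and 8.20 FPKM in DMSO (log2 difference 0.74 ± 0.06 SE, limma adjusted p = 1.92e-06). Over 602 bases, orc1 overlaps prpf38a on the opposite strand, which had 26.8 ± 2.6 FPKM in TBBPA and 32.7 ± 1.2 FPKM in DMSO. The core subunit orc3 averaged 50.5 ± 2.6 FPKM in TBBPA and 34.5 ± 3.4 FPKM in DMSO, and orc2 averaged 22.2 ± 0.91 FPKM in TBBPA and 16.1 ± 1.2 FPKM in DMSO. The small subunit orc6, which also overlaps vps35 by 166 bases on the opposite strand, averaged 128 ± 2.1 FPKM in TBBPA and 104 ± 5.9 FPKM in DMSO. At 4.5 hpf vps35 itself had 42.8 ± 0.68 FPKM in TBBPA and 32.1 ± 0.93 FPKM in DMSO. Neither orc4 (log2 difference -0.02, 95% interval -0.13 to 0.09) nor orc5 (0.10, interval -0.07 to 0.28) was called, and with TPM scaling both were called higher.

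The genes that turn the loaded ring into a working helicase were split, with 3 higher, 2 lower and 1 not called of 6. The background was 33.1% higher and 35% lower. The calls of both lower genes, gins4 and cdc45, were lost with TPM or total-count scaling. The activation factor mcm10 averaged 33.2 ± 1.6 FPKM in TBBPA and 23.3 ± 1.0 FPKM in DMSO (log2 difference 0.50 ± 0.05 SE, limma adjusted p = 6.84e-06). The GINS complex has 4 subunits. Of these gins1 (log2 difference 0.17) and gins3 (0.24) were higher, gins4 (-0.26) was lower and gins2 was not called (-0.16, adjusted p = 0.0720 in limma). The values of gins1 and gins3 overlapped between treatments in at least 1 library. The values of cdc45 at 4.5 hpf were 7.10, 6.42, 8.36 and 6.97 FPKM in TBBPA, against 8.53, 9.65, 9.79 and 9.01 FPKM in DMSO (log2 difference -0.32 ± 0.08 SE, limma adjusted p = 0.00528). Its closest libraries, at 8.36 FPKM in TBBPA and 8.53 FPKM in DMSO, nearly met.

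The polymerase genes did not move as complexes. In polymerase alpha-primase, the accessory subunit pola2 (33.0 ± 2.5 FPKM in TBBPA and 24.5 ± 1.6 FPKM in DMSO) and the large primase subunit prim2 (37.1 ± 1.5 FPKM in TBBPA and 30.4 ± 1.3 FPKM in DMSO) were higher. The catalytic primase subunit prim1 (44.0 ± 2.2 FPKM in TBBPA and 53.0 ± 2.5 FPKM in DMSO) was lower, and the catalytic subunit pola1 was not called (log2 difference -0.11, limma adjusted p = 0.0680). The call of prim1 was lost with TPM or total-count scaling. Over 1868 bases prim1 overlaps tfip11 on the opposite strand, which had 23.9 ± 0.91 FPKM in TBBPA and 20.1 ± 0.64 FPKM in DMSO.

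In polymerase delta, the catalytic subunit pold1 (15.0 ± 0.57 FPKM in TBBPA and 12.9 ± 0.56 FPKM in DMSO) was higher and the accessory subunit pold3 (75.9 ± 3.6 FPKM in TBBPA and 99.1 ± 3.1 FPKM in DMSO) was lower. The second accessory gene, pold2, had 22.8, 23.5, 25.6 and 23.4 FPKM in TBBPA, against 15.2, 14.1, 14.6 and 12.2 FPKM in DMSO. It was thus higher in every TBBPA library (log2 difference 0.73 ± 0.07 SE, limma adjusted p = 6.47e-06). It shares 158 bases with sf3a1 on the same strand, which had 122 ± 3.7 FPKM in TBBPA and 129 ± 2.1 FPKM in DMSO. In polymerase epsilon, the catalytic subunit pole (log2 difference -0.23) and the histone-fold subunits pole3 (-0.05) and pole4 (-0.10) were not called. The accessory subunit pole2 averaged 87.9 ± 5.3 FPKM in TBBPA and 64.2 ± 3.9 FPKM in DMSO and was higher. It lies wholly inside ppp1r21 on the same strand, which had 58.3 ± 2.0 FPKM in TBBPA and 64.3 ± 3.0 FPKM in DMSO.

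Of the 8 clamp, loader and RPA genes tested, 7 were lower in TBBPA and rfc1 was higher, beside 35% lower among all genes. With TPM or total-count scaling rpa1, rpa3, rfc4 and rfc5 were not called, which leaves pcna, rfc2 and rpa2 lower. The clamp gene pcna had 497, 488, 520 and 519 FPKM in TBBPA, against 687, 704, 696 and 771 FPKM in DMSO (log2 difference -0.50 ± 0.04 SE, limma adjusted p = 1.93e-06). The large loader subunit rfc1, on chromosome 1 at 23243093 to 23274038 on the minus strand, had 17.7, 17.4, 15.8 and 16.5 FPKM in TBBPA, against 5.72, 5.41, 5.52 and 4.54 FPKM in DMSO. The lowest TBBPA library was well above the highest DMSO library, the ratio of means was 3.18, and the log2 difference was 1.51 ± 0.07 (SE, limma adjusted p = 1.22e-07). Over 4536 bases rfc1 overlaps rpl9 on the same strand, which averaged 0.107 FPKM over all libraries. How reads of the shared bases were assigned is not given in the sources used here. The small loader subunits rfc2 (31.3 ± 1.8 FPKM in TBBPA and 39.1 ± 2.1 FPKM in DMSO), rfc4 (26.7 ± 0.39 FPKM in TBBPA and 30.6 ± 2.5 FPKM in DMSO) and rfc5 (38.7 ± 1.7 FPKM in TBBPA and 45.1 ± 2.2 FPKM in DMSO) were lower.

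Of the RPA subunits, rpa2 averaged 23.9 ± 1.0 FPKM in TBBPA and 31.7 ± 0.96 FPKM in DMSO (log2 difference -0.39). The smallest, rpa3, averaged 109 ± 3.7 FPKM in TBBPA and 126 ± 4.2 FPKM in DMSO (log2 difference -0.21). The DNA-binding subunit rpa1 had 45.2, 44.4, 43.6 and 43.4 FPKM in TBBPA, against 48.5, 51.4, 50.6 and 51.6 FPKM in DMSO (log2 difference -0.19 ± 0.03 SE, limma adjusted p = 5.04e-04). Its groups did not overlap, but neither rpa1 nor rpa3 was called with TPM or total-count scaling.

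Of the 4 genes present by name alone, 2 were higher, 1 was lower and 1 was not called. Among all genes tested, 33.1% were higher and 35% lower. The recombination gene mcm8 had 9.11, 9.65, 9.03 and 7.92 FPKM in TBBPA, against 5.05, 5.57, 5.32 and 4.10 FPKM in DMSO (log2 difference 0.73 ± 0.09 SE, limma adjusted p = 5.67e-05). Its partner mcm9 had 7.26, 7.53, 6.38 and 6.03 FPKM in TBBPA, against 3.63, 4.48, 3.95 and 3.50 FPKM in DMSO (log2 difference 0.67 ± 0.09 SE, limma adjusted p = 9.16e-05). The export factor mcm3ap had 25.0, 25.7, 23.0 and 28.1 FPKM in TBBPA, against 32.3, 32.4, 37.8 and 39.3 FPKM in DMSO, and was lower as at 3.5 hpf. The MCM-binding gene mcmbp was not called (log2 difference 0.06, limma adjusted p = 0.161).

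**Figure D4:**
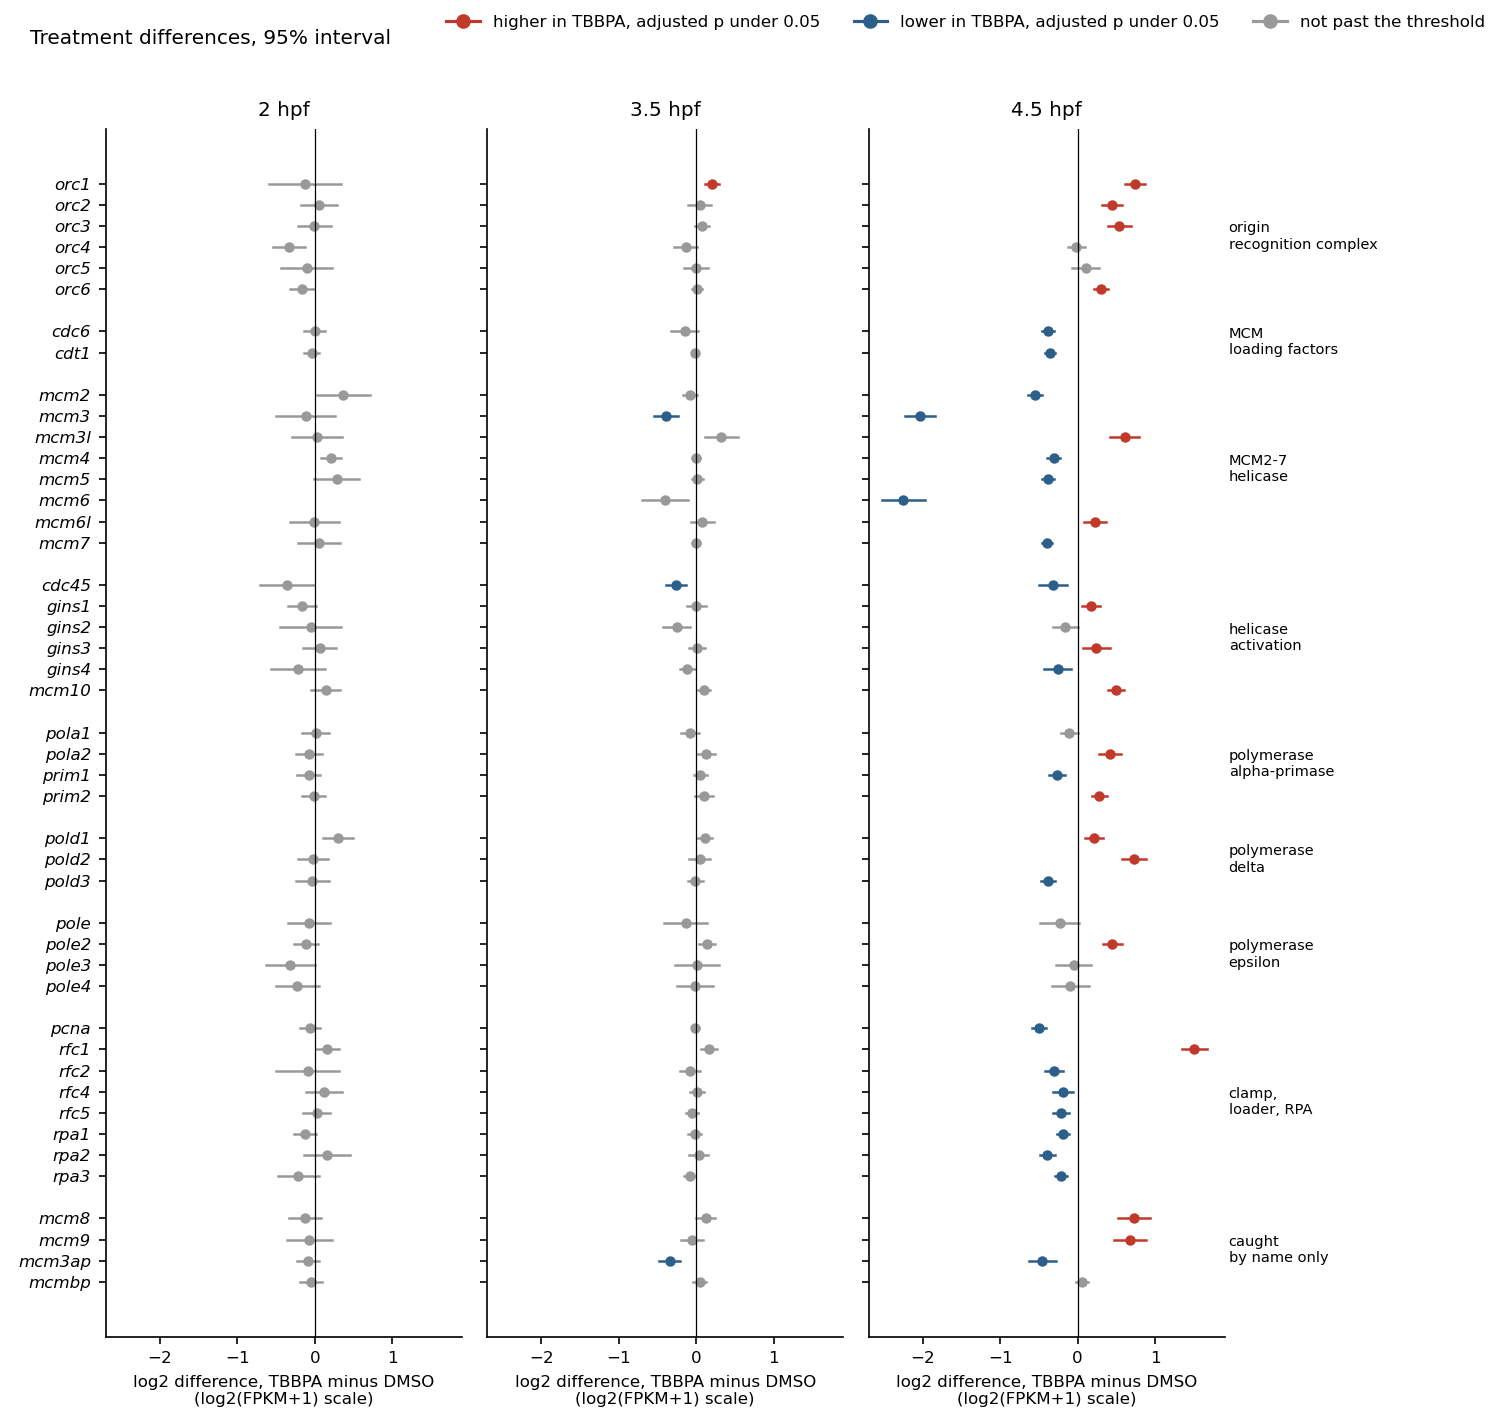
Log2 difference, TBBPA minus DMSO, on the log2(FPKM + 1) scale with 95% interval for each tested gene at 2, 3.5 and 4.5 hpf (panels left to right), ordered by role; red is higher and blue lower at limma adjusted p under 0.05, grey is not past the threshold. No gene is coloured at 2 hpf, 4 are at 3.5 hpf and 37 are at 4.5 hpf, from -2.25 for mcm6 to 1.51 for rfc1.

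The summed FPKM of the 46 genes was 2561 ± 76 in TBBPA and 2643 ± 62 in DMSO at 2 hpf, 2702 ± 31 in TBBPA and 2711 ± 48 in DMSO at 3.5 hpf, and 2768 ± 37 in TBBPA and 3295 ± 82 in DMSO at 4.5 hpf. At 4.5 hpf the ratio of TBBPA to DMSO was 0.840 as deposited and 0.949 with TPM scaling. The abundant genes cdt1, pcna and mcm7 carry much of this sum.

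Over the hour between 3.5 and 4.5 hpf, 33 of the 45 genes tested changed in DMSO embryos and 9 in TBBPA embryos. In TBBPA, 5 rose and 4 fell, against 6.15% and 8.6% of the 11877 genes tested. In DMSO, 18 rose and 15 fell, against 35.8% and 34.3% of the 12354 genes tested. The risers in TBBPA were mcm6, mcm3, mcm2, pcna and cdt1, and the 4 that fell were rfc1, mcm9, rpa1 and mcm10. Without TBBPA replicate 1 or 4 of 3.5 hpf, or replicate 3 or 4 of 4.5 hpf, mcm9 and mcm10 were no longer called. The call of mcm10 was also lost without replicate 2 or 3 of 3.5 hpf, or without replicate 2 of 4.5 hpf. Without replicate 1 of 4.5 hpf, 7 genes fell. The median log2 change was 0.00 in TBBPA and 0.06 in DMSO, with -0.01 and 0.02 for all genes tested. With TPM scaling, DMSO counts were 12 risen and 21 fallen, with total-count scaling 12 and 20, and with voom 14 and 19. These scalings put the median change of all genes in DMSO at -0.12 for TPM and -0.10 for total counts. The shares of all genes called under TPM, total counts or voom are not given here.

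The 18 genes that rose in DMSO included 6 helicase ring genes, both loading factors, pcna, 3 small loader subunits, and rpa2 and rpa3. With TPM scaling cdc6, rfc4, rfc5, mcm3ap, pola1 and rpa3 were not called, and rpa3 and pola1 changed sign. Since these genes were picked by their DMSO call, their changes in TBBPA are a description. The largest rise was that of mcm6, with a log2 change of 0.90 ± 0.16 in TBBPA (SE, limma adjusted p = 0.00519) and 2.75 ± 0.09 in DMSO (limma adjusted p = 3.66e-09). For mcm3 it was 0.75 ± 0.08 in TBBPA (limma adjusted p = 7.95e-04) and 2.39 ± 0.07 in DMSO (limma adjusted p = 2.98e-09). For pcna it was 0.14 ± 0.02 in TBBPA and 0.63 ± 0.04 in DMSO. The ring genes mcm4, mcm5 and mcm7 rose in DMSO by 0.38, 0.34 and 0.39 and were not called in TBBPA at 0.07, -0.05 and -0.01.

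The 15 genes that fell in DMSO included 4 origin complex genes, mcm3l, mcm10, rfc1, pold2, mcm8 and mcm9. They too were picked by their DMSO call. The loader gene rfc1 had 25.8, 24.9, 22.6 and 22.7 FPKM in TBBPA at 3.5 hpf, against 21.7, 21.5, 20.7 and 21.0 FPKM in DMSO. Over the hour its log2 change was -0.48 ± 0.06 in TBBPA (SE, limma adjusted p = 8.16e-04) and -1.83 ± 0.07 in DMSO (limma adjusted p = 7.96e-09). For mcm9 it was -0.33 ± 0.08 in TBBPA and -1.06 ± 0.08 in DMSO. The polymerase subunit pold2 fell by 0.77 in DMSO and was not called in TBBPA, where its log2 change was -0.09. For rpa1 as deposited the larger change was in TBBPA, at -0.22 ± 0.04 in TBBPA (limma adjusted p = 0.00417) and -0.05 ± 0.03 in DMSO (limma adjusted p = 0.187). With TPM scaling, total-count scaling or voom, rpa1 was called as falling in DMSO as well.

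A test of whether the treatment difference itself changed between 3.5 and 4.5 hpf (the interaction term, fitted to 16 libraries) called 13 genes higher and 17 lower of 45. The background was 26.3% higher and 26.6% lower of the 12780 genes tested, and the median was -0.06, against -0.00 for all. A negative value means that the TBBPA difference was more negative, or less positive, at 4.5 hpf than at 3.5 hpf. Of the 18 genes that rose in DMSO, 16 had a negative interaction, and of the 15 that fell, 13 had a positive interaction. The interaction equals the difference between the changes in time, so these counts are not independent of them. The largest were mcm6 at -1.85 ± 0.19 (SE, limma adjusted p = 9.29e-07), mcm3 at -1.64 ± 0.12 (limma adjusted p = 2.19e-08) and rfc1 at 1.34 ± 0.09 (limma adjusted p = 1.08e-08). For mcm3l the value was 0.28 with a 95% interval of -0.00 to 0.57, and for mcm6l 0.14 with an interval of -0.06 to 0.34, neither past the threshold. With TPM or total-count scaling both mcm3l and mcm6l were called positive, and mcm3l was also called with voom. The interaction of cdc45 was -0.06 with an interval of -0.26 to 0.15, and that of mcm3ap was -0.12 with an interval of -0.34 to 0.11. For both, a lower level in TBBPA was called at 3.5 and at 4.5 hpf. With TPM or total-count scaling the split was 19 higher and 11 lower, with the median of all genes at 0.13 and 0.11, and with voom it was 16 higher and 11 lower. For these alternatives too, the shares of all genes called are not given here.

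**Figure D5:**
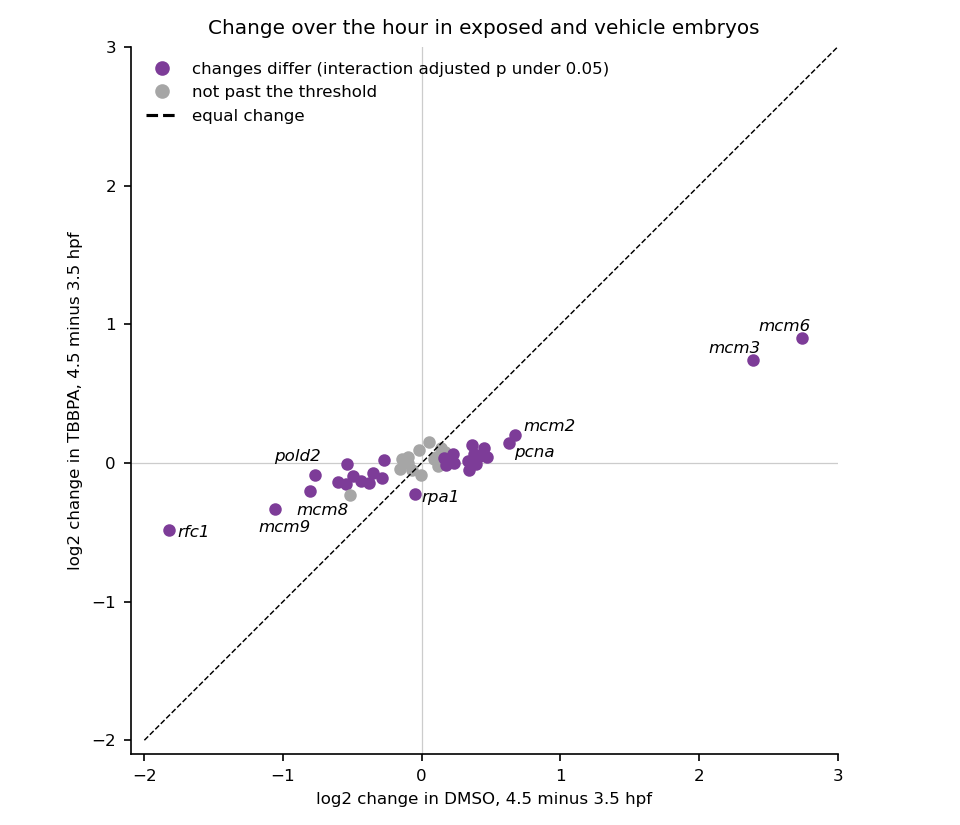
Log2 change between 3.5 and 4.5 hpf in TBBPA (vertical) against that in DMSO (horizontal) for each of 45 genes, on the log2(FPKM + 1) scale; the dashed line marks equal change and purple marks an interaction at limma adjusted p under 0.05. The points lie along a line flatter than the dashed one, from rfc1 at -0.48 in TBBPA and -1.83 in DMSO to mcm6 at 0.90 in TBBPA and 2.75 in DMSO.

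Other genes around the replication fork were followed as 6 lists. At 2 hpf none of their genes was called. The shares among all genes tested, to set beside the counts of each list as deposited, were 6.67% higher and 5.34% lower at 3.5 hpf. At 4.5 hpf these shares were 33.1% higher and 35% lower. Among 19 licensing and firing regulators, 3 were higher and 1 lower in TBBPA at 3.5 hpf. At 4.5 hpf 10 of them were higher and 6 lower, but 12 higher and 4 lower with TPM or total-count scaling. The origin complex partner lrwd1 averaged 10.6 ± 1.8 FPKM in TBBPA and 28.0 ± 2.0 FPKM in DMSO at 3.5 hpf (log2 difference -1.33) and 33.7 ± 6.9 FPKM in TBBPA and 198 ± 26 FPKM in DMSO at 4.5 hpf (-2.54). Cyclin E gene ccne2 averaged 6.45 ± 1.0 FPKM in TBBPA and 32.7 ± 4.1 FPKM in DMSO at 4.5 hpf (log2 difference -2.18). Higher in TBBPA at 4.5 hpf were mtbp, a firing factor, at 41.9 ± 3.4 FPKM in TBBPA and 18.4 ± 2.8 FPKM in DMSO, and the cyclin A gene ccna1, at 292 ± 13 FPKM in TBBPA and 168 ± 8.9 FPKM in DMSO. At 3.5 hpf mtbp (0.28) and the firing kinase cdc7 (0.23) were the largest log2 rises.

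Of 16 checkpoint genes, 15 of them tested at 4.5 hpf, 4 were higher and 0 lower at 3.5 hpf, and 12 were higher and 2 lower at 4.5 hpf. The cell cycle inhibitor cdkn1a averaged 30.8 ± 1.4 FPKM in TBBPA and 4.39 ± 1.0 FPKM in DMSO at 3.5 hpf (log2 difference 2.58) and 43.6 ± 5.0 FPKM in TBBPA and 7.60 ± 1.2 FPKM in DMSO at 4.5 hpf (2.38). The damage-sensing kinase gene atm had a log2 difference of 0.25 at 3.5 hpf. The replication stress kinase gene atr averaged 6.33 ± 0.42 FPKM in TBBPA and 2.82 ± 0.32 FPKM in DMSO at 4.5 hpf, while wee1, an inhibitory kinase, averaged 1.11 ± 0.14 FPKM in TBBPA and 2.91 ± 0.84 FPKM in DMSO.

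Of 18 E2F and Rb family genes, which regulate replication genes in cycling somatic cells and of which 16 were tested at 4.5 hpf, 2 were higher and 1 lower at 3.5 hpf. At 4.5 hpf 3 were higher and 9 lower as deposited, but 6 higher and 5 lower with either TPM or total-count scaling. The repressor gene e2f7 averaged 1.97 ± 0.29 FPKM in TBBPA and 0.545 ± 0.11 FPKM in DMSO at 3.5 hpf (log2 difference 0.94), where mybl2a had 0.19 and e2f8 -0.16. At 4.5 hpf e2f8 averaged 13.2 ± 0.51 FPKM in TBBPA and 34.0 ± 2.5 FPKM in DMSO, and the Rb relative rbl1 averaged 5.60 ± 0.61 FPKM in TBBPA and 14.4 ± 1.8 FPKM in DMSO. The log2 differences of mybl2a and e2f6 were 0.64 and 0.62.

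Of 21 lagging-strand and fork genes, 19 of them tested at 4.5 hpf, 1 was higher and 0 lower at 3.5 hpf, namely atad5b (log2 difference 0.31). At 4.5 hpf 6 were higher and 10 lower, but 7 higher and 4 lower with TPM scaling and 6 higher and 5 lower with total counts. The topoisomerase gene top2a averaged 10.1 ± 1.1 FPKM in TBBPA and 35.4 ± 4.2 FPKM in DMSO, and rnaseh2c, a subunit of an enzyme that removes RNA from DNA, had a log2 difference of -0.43. The nuclease gene dna2 (0.81) and dscc1 (0.62), part of an alternative clamp loader, were the largest log2 rises. Of 17 nucleotide supply genes, 16 of them tested at 4.5 hpf, 1 was higher and 1 lower at 3.5 hpf, tyms at a log2 difference of 0.27 and cad at -0.31. At 4.5 hpf 5 were higher and 8 lower, but 5 higher and 4 lower with TPM or total-count scaling. Thymidylate synthase, tyms, averaged 98.4 ± 5.7 FPKM in TBBPA and 47.9 ± 5.0 FPKM in DMSO, and tk2, a thymidine kinase, had a log2 difference of 0.39. The pyrimidine and purine synthesis genes cad (-0.47) and gart (-0.43) had the largest log2 falls.

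Of 10 chromatin assembly genes, 1 was higher and 1 lower at 3.5 hpf, hira at a log2 difference of 0.30 and rbbp4 at -0.26. At 4.5 hpf 3 were higher and 6 lower, but 3 higher and 3 lower with TPM or total-count scaling. The histone-binding gene rbbp4 averaged 26.7 ± 1.6 FPKM in TBBPA and 63.1 ± 4.8 FPKM in DMSO, and rbb4l had a log2 difference of -0.33. The histone chaperone genes asf1bb (0.70) and hira (0.53) had the largest log2 rises. The background of the list counts as deposited was 6.67% higher and 5.34% lower at 3.5 hpf, and 33.1% higher and 35% lower at 4.5 hpf. For the list counts with TPM or total-count scaling no background is given here.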

How the data were processed

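RNA of whole zebrafish embryos was measured in 24 libraries. The deposited values are FPKM, scaled by the authors within each of 2 tables (8 libraries of 2 hpf, 16 of later times), per the file headers and labels. The submitters' processing notes name HISAT2 2.0.5 and featureCounts 1.5.0-p3. The genome build and annotation release could not be read from the sources used here. The labels' protocol describes both a directional and a non-directional library without saying which was made, so reads of genes that overlap on opposite strands may not be told apart. Columns were matched to samples by their labels, with 0 left over. FPKM multiplied by gene length came out as whole multiples of 1 step for 100% of values within 0.001. These were taken as recovered reads (10.63 to 20.02 M per library).

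Genes reaching 1 FPKM in 4 or more libraries of a comparison entered limma 3.58.1 (R 4.3.3) with a variance trend, on log2(FPKM + 1). P-values were 2-sided and Benjamini-Hochberg adjusted over all genes tested, and 0.05 was the threshold. The fits were TBBPA against DMSO at 2, 3.5 and 4.5 hpf, 4.5 against 3.5 hpf within each treatment, and their interaction. Library measures used exact permutation tests. The code was tested on simulated data. Alternatives were a pseudocount of 0.1, no filter, a replicate block, TPM and total-count scaling, voom on recovered reads, all 16 later libraries in 1 fit, and leaving out each replicate. Shares of all genes called are given for the reported fits only.

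The genes and lists were chosen with earlier results of these data known. Every library is printed for mcm2, mcm3, mcm3l, mcm6 (at 2 hpf as reads), mcm6l, pcna, cdc6 and cdt1, and, at 1 or more times, for the 3 largest called log2 differences in each direction of each fit with 5 FPKM or more in a group. From each list the 2 largest called rises and falls at 3.5 and 4.5 hpf are named, except 1 gene that is not reported here. No sequence was used here.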

Additional observations from a re-analysis of the deposited data

Results flagged for a closer look

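Within groups of 4 libraries, 96 sets of values of the 16 genes listed by library were searched for a library far from the other ones. There were 3, where chance gives about 1 in 20 sets. TBBPA replicate 4 at 3.5 hpf had 27.4 FPKM of mcm3ap, the others 22.9 to 23.5. TBBPA replicate 2 at 3.5 hpf had 75.9 FPKM of cdc6, the others 61.2 to 62.3. TBBPA replicate 3 at 2 hpf had 17.2 FPKM of mcm8, the others 16.2 to 16.3.

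For 12 of these 16 genes the difference between TBBPA and DMSO itself differed between 4.5 and 3.5 hpf by the interaction term. Some of the 16 were picked for their large called differences, also in the interaction fit, so this count is a description only. Among all genes tested, the interaction was positive for 26.3% and negative for 26.6%. On the log2 scale, as the 4.5 hpf difference minus the 3.5 hpf difference, it was negative for mcm6 (-1.85), mcm3 (-1.64), pcna (-0.48), mcm2 (-0.47), cdt1 (-0.34), cdc6 (-0.23) and rpa1 (-0.17). It was positive for rfc1 (1.34), mcm9 (0.73), pold2 (0.68), mcm8 (0.60) and orc1 (0.53). The values of cdc6 and rpa1 were no longer past the threshold with TPM scaling, total-count scaling or voom. That of cdc6 was also not past it with no filter and in several fits that left out a replicate.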

How the results depend on the processing

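Of 989 values of the genes listed by library under alternatives, 936 kept their direction and side of the threshold, 37 lost the call, 16 gained one and 0 called values reversed. Genes not called in a reported fit and with a small log2 difference there were left out of this tally, so it is not complete. The count of genes higher at 3.5 hpf was 1 in the reported fit, 4 with the replicate block, 4 with TPM scaling, 3 with total-count scaling, 3 with voom, 2 with all 16 libraries in 1 fit, and 1 to 3 leaving out a replicate (3 without DMSO replicate 1, 2 without DMSO replicate 3, TBBPA replicate 3 or TBBPA replicate 4). All 4 calls at 3.5 hpf were kept throughout. The count lower at 4.5 hpf was 20, and 13 with TPM or total-count scaling. All 37 calls were kept when any replicate was left out. The count falling in TBBPA was 4, but 2 with no filter, 7 with the replicate block, 7 with voom, and 2 to 7 leaving out a replicate. It was 7 without 4.5 hpf replicate 1, and 2 without 3.5 hpf replicate 1 or 4 or 4.5 hpf replicate 3 or 4, where mcm9 and mcm10 were lost. The call of mcm10 was also lost without 3.5 hpf replicate 2 or 3, or without 4.5 hpf replicate 2. The count of negative interactions was 17, and 11 with TPM scaling, total-count scaling or voom. Leaving out a replicate gave 13 to 17 negative and 11 to 15 positive interactions, with at least 24 of the 30 calls kept. The summed level, TBBPA over DMSO at 4.5 hpf, was 0.840 and 0.949 with TPM scaling. Among genes that lost the call under TPM scaling, rpa3 and pola1 changed sign in the DMSO change over time, as did rpa3 in the interaction. The cause was not tested. The labels do not say whether replicate numbers pair the samples. Deviations of same-numbered libraries correlated at -0.082 to 0.188, and some but not all samples matched best with their own number. Such weak correlations cannot settle whether the samples were paired. The replicate block called mcm6 lower at 3.5 hpf (adjusted p = 0.0460, 0.0867 without it) and kept every reported call. It added pola2, mcm3l and rfc1 at 3.5 hpf, gins2 at 4.5 hpf, and orc3, mcm3l and pole2 in the change over time in TBBPA. Depth limits mcm6 at 2 hpf (0 to 9 reads per library). The gene rfc3 was left out by the FPKM filter, with 16 to 49 reads per library in DMSO at 4.5 hpf and 46 to 234 in TBBPA at 2 hpf.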
